A study of Ovis aries with 14 samples.

Results

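The genes described here are 63 enzymes and close relatives that write or remove DNA methylation and histone marks, measured in whole sheep ovary after prenatal testosterone. They were taken by gene symbol: names that begin with DNMT, SETD or a numbered HDAC, SIRT, KDM, KMT or PRMT, together with TET1 to TET3, EZH1 and EZH2. All 63 were listed in each of the 3 deposited tables, out of 15175 genes that the tables have in common. They comprise 3 DNA methyltransferases, 3 TET dioxygenases, 10 zinc-dependent histone deacetylases, 7 sirtuins, 16 lysine demethylases, 7 KMT-named methyltransferases, 10 SETD-named proteins, 1 EZH methyltransferase and 6 arginine methyltransferases. All of them passed the filter on low values in every fit, a mean of at least 10 normalized reads. Family members without a matching name in all 3 tables, EZH2 among them, were not analysed here.

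RNA-seq of whole frozen ovaries of Suffolk sheep, labelled wild type, covered 4 groups. The adult testosterone group (n = 4, T4 to T7) and the adult control group (n = 4, C4 to C7) were sampled at year 2. The fetal testosterone group (n = 3, T1 to T3) and the fetal control group (n = 3, C1 to C3) were sampled at day 90. The labels list 4 adult controls where the series text counts 3, and the labels were followed. Mothers of the testosterone groups received intramuscular testosterone propionate in cottonseed oil from day 30 to day 90 of gestation, so the adults had been exposed before birth and the fetuses were sampled at the end of exposure. What control mothers received, and how animals relate to mothers and litters, is not given in the sources used here, so the p-values reflect no more than how these samples vary. In whole ovaries, fewer cells of a type and less RNA per cell cannot be told apart.

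DNA methyltransferases attach methyl groups to cytosines: DNMT1 copies the pattern at replication, while DNMT3A and DNMT3B lay down new methylation. TET dioxygenases oxidize methylcytosine and so begin its removal. Histone lysine methylation is set by methyltransferases (KMT, SETD and EZH families) and erased by lysine demethylases (KDM), and lysine acetylation is removed by histone deacetylases (HDAC) and by the NAD-dependent sirtuins. Arginine methyltransferases (PRMT) modify histones and many other proteins. In the fetal gonad, germ cells lose much of their DNA methylation, which the female germ line regains later, in growing oocytes. In the adult ovary somatic cells, among them those of follicles and corpora lutea, make up most of the tissue.

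The libraries held 22.6 to 33.4 M recovered reads each. Values below are normalized reads: each library's reads were scaled for depth by a factor set over all 14 libraries, so that the ages share a scale. They are not divided by gene length, so levels are compared between libraries and not between genes. Of 9 ovarian identity genes 7 were measured, and their summed level was 5176 to 12064 in adult testosterone, 6711 to 14555 in adult control, 17481 to 19762 in fetal testosterone and 16457 to 19312 in fetal control libraries. Adult libraries T4, T7 and C6 stood apart: OXT, the hormone gene of the ruminant corpus luteum, had 122264, 68252 and 105432 normalized reads in them and at most 87.5 in the other 5 adult libraries. Library C4 had the highest summed level of 8 measured smooth muscle genes, 962551 against 77992 to 255001 in the other adult libraries. The germ cell gene DDX4 had 4205, 2808 and 2845 normalized reads in fetal testosterone and 3949, 5899 and 3315 in fetal control libraries, and at most 92.8 in any adult library.

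The DNA methyltransferases ranged less among fetal than among adult ovaries, and treated and control animals overlapped at both ages except for DNMT3B in the fetus. DNMT1 had 1778, 3230.3, 3222 and 2061 normalized reads in adult testosterone libraries (in number order, as for all values below), 2935, 3835, 2076 and 4122 in adult controls, 3146, 3530.0 and 3750.3 in fetal testosterone libraries and 3106, 3388 and 3234 in fetal controls. The 3 lowest adult values belonged to T4, T7 and C6, while the fetal values overlapped between groups. DNMT3A had 1395, 2274, 2060.1 and 1986 in adult testosterone, 1062, 2112, 1366 and 2713 in adult control, 2198, 2466 and 2652 in fetal testosterone and 2585, 2329 and 2567 in fetal control libraries. Its lowest value was that of C4, and its treated and control values overlapped at both ages. DNMT3B had 3124, 1386, 1389 and 2852 in adult testosterone, 1570.1, 1919.8, 2747 and 1633 in adult control, 2007, 1994 and 2019 in fetal testosterone and 2093, 2119.7 and 2213 in fetal control libraries. For DNMT3B the 3 highest adult values were in T4, T7 and C6, and all 3 fetal testosterone values lay below the 3 fetal controls, with a log2 change of -0.091 (SE 0.077, limma adjusted p = 0.713).

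The TET genes had lower values in fetal testosterone than in fetal control ovaries, a difference that did not pass adjustment over all genes, and TET1 had its lowest values in the adult. TET1 had 139, 714, 457 and 71.5 normalized reads in adult testosterone, 279, 356, 139 and 155 in adult control, 714, 819 and 879 in fetal testosterone and 1103, 945 and 1073 in fetal control libraries. Every fetal testosterone value was below every fetal control value, and the adult values of TET1 spread 9.98-fold, from T7 to T5, the widest of the 63 genes. TET2 had 1117, 2328, 1621 and 632 in adult testosterone, 905, 1358, 1139 and 798 in adult control, 1280.1, 1259 and 1459 in fetal testosterone and 1701, 1746 and 1416 in fetal control libraries. In TET2, fetal T3 reached above control C3, so the fetal groups overlapped. TET3 had 226, 511, 360.1 and 181 in adult testosterone, 217, 386, 199.7 and 364 in adult control, 269, 292 and 408 in fetal testosterone and 422, 535 and 422 in fetal control libraries. Here the fetal groups did not overlap, with T3 nearest to the controls, and the adult groups did. EZH1, a catalytic subunit of the Polycomb repressive complex that methylates histone H3, had 1468, 2753, 2615 and 1569 in adult testosterone, 2959.9, 2052, 1812 and 2548 in adult control, 1381, 1523 and 1572 in fetal testosterone and 1591, 1825 and 1505 in fetal control libraries, with the groups overlapping at both ages.

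**Figure D1:**
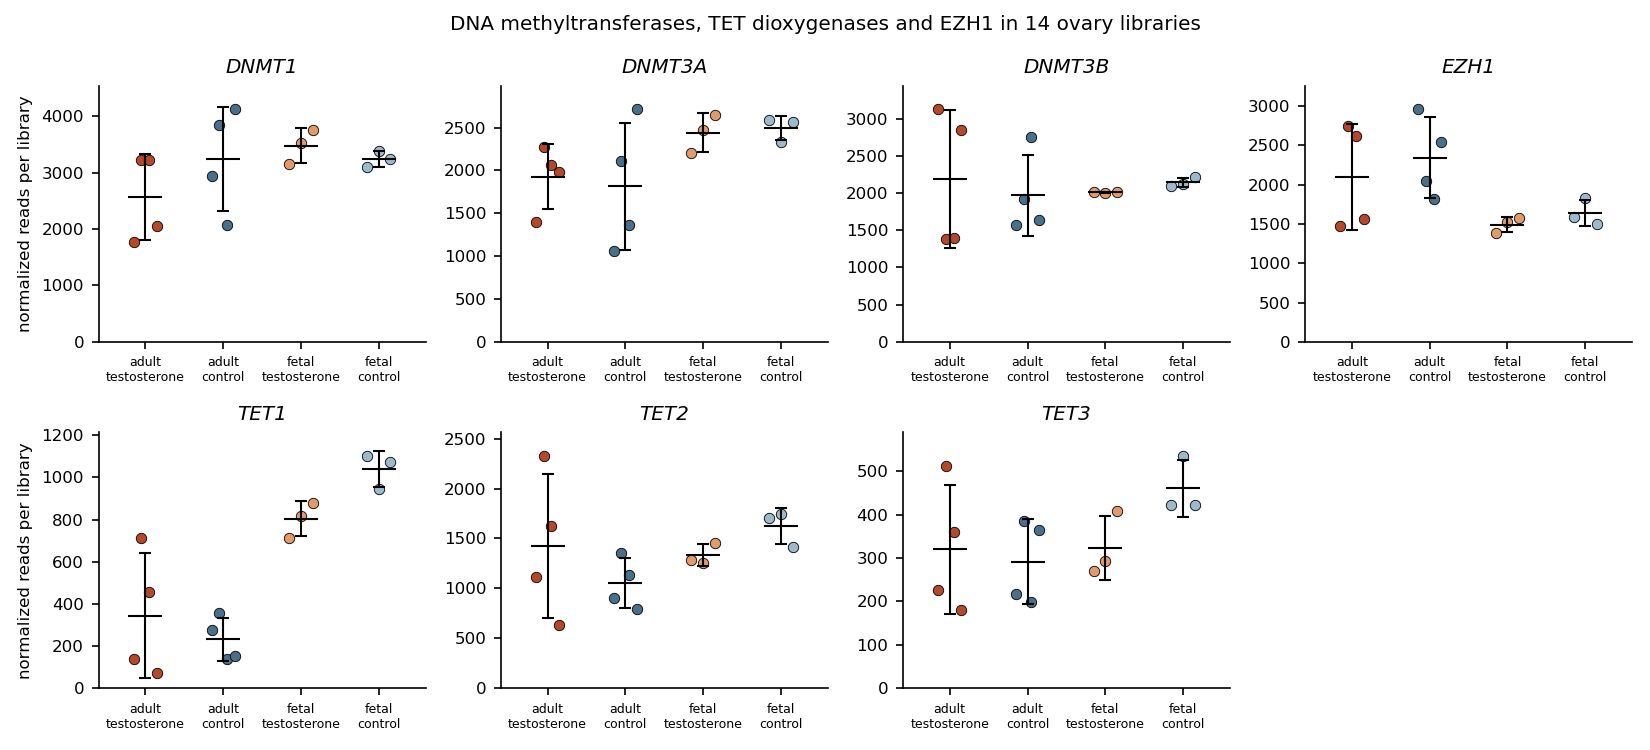
Normalized reads of DNMT1, DNMT3A, DNMT3B, EZH1 and TET1 to TET3 in each of the 14 libraries (points), with the group mean and SD (bars), for adult testosterone, adult control, fetal testosterone and fetal control ovaries. Fetal TET1 values were 714 to 879 with testosterone and 945 to 1103 in controls, and the adult points spread more widely than the fetal points in every panel.

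The first comparison asked how testosterone exposure changed these genes in the fetal ovary. No member passed the test: limma, a linear model fitted across all genes, called 0 of 63, against 0.0182% of all 16513 genes, and the smallest adjusted p was 0.384, for TET1. At an unadjusted p under 0.05 there were 8 members, 7 lower (beside 4.5% of all genes) and 1 higher (beside 5.26%). Together they were 12.7%, near the 9.76% of all genes. DESeq2 and edgeR also called 0 members, with DESeq2 calling 1.58% of all genes, and the authors' deposited table likewise listed 0 members under 0.05, with 0.171 as its smallest adjusted p.

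More members had negative than positive changes. Of the 63, 42 had a negative log2 change and the median was -0.068, beside 8818 negative of 16513 and a median of -0.019 over all genes. The 3 testosterone libraries lay wholly below the 3 controls for 10 members, 15.9% against 7.46% of all genes. These were DNMT3B, KDM2A, KDM2B, KDM3A, KDM4B, KDM5C, KMT2B, SETD1B, TET1 and TET3. They lay wholly above the controls for HDAC1, KMT5C and SIRT3, 4.76% against 8.88% of all genes. By class, all 16 demethylases and all 3 TET genes had a negative change, with medians of -0.16 and -0.37. Negative changes were also the majority among SETD-named proteins (8 of 10) and KMT-named methyltransferases (5 of 7), whereas the 3 class I deacetylases and 6 of 7 sirtuins had positive changes. The demethylase count was 13 to 16 when each library was left out in turn and the TET count was 3 each time. Over all alternatives the negative count was 5 to 9 among SETD-named proteins and 4 to 6 among KMT-named methyltransferases, and the positive count 2 or 3 among class I deacetylases and 5 or 6 among sirtuins. Genes of a class were read in the same 6 libraries, so these counts are not independent observations.

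**Figure D2:**
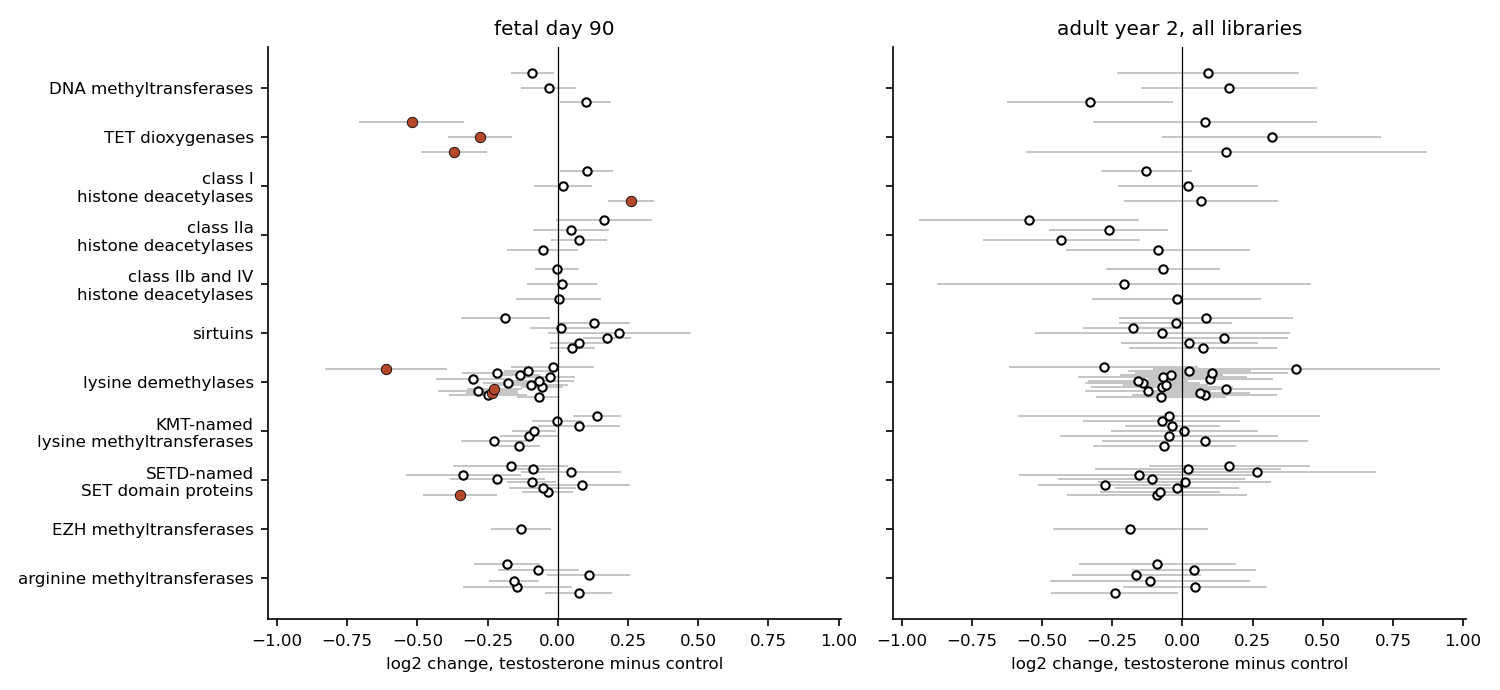
Log2 change, testosterone minus control, of each of the 63 members (points) with its SE (lines), grouped by class, in the fetal ovary (left) and over the 8 adult libraries (right). Filled points had an unadjusted p under 0.05: 8 in the fetal ovary and 0 in the adult, and no point passed adjustment over all genes.

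Among erasers of DNA methylation, TET1 had a log2 change of -0.37 (SE 0.12, unadjusted p = 0.0132 from limma). TET3 differed by -0.52 (SE 0.19) and TET2 by -0.28 (SE 0.11), with limma adjusted p of 0.444 and 0.487. None of these passed. With 3 animals a group the 95% interval for TET1 ran from -0.64 to -0.10. DNMT1 differed by 0.099 (SE 0.091).

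Class I deacetylases and most sirtuins had positive changes, none past the test. HDAC1, a nuclear enzyme of several corepressor complexes, had 12361, 13771 and 12916 normalized reads in fetal testosterone and 11327, 10141 and 11191 in fetal control libraries. The lowest testosterone value exceeded the highest control value, and the log2 change was 0.26 (SE 0.083, limma adjusted p = 0.386). Its partner HDAC2 had 6296, 5673 and 5024 in fetal testosterone and 5643, 5935 and 5181 in fetal control libraries, overlapping. HDAC3, the enzyme of the nuclear receptor corepressors, had 1869.9, 2170.2 and 1882 in fetal testosterone and 1881, 1759 and 1875 in fetal control libraries. T2 was the highest of its 6 values and T1 overlapped the controls. SIRT3, a mitochondrial deacetylase, had 1688, 1705 and 1568 with testosterone and 1446, 1461 and 1495 in controls, without overlap (log2 change 0.17, SE 0.085, limma adjusted p = 0.552). SIRT2, a mainly cytoplasmic sirtuin, had 1551, 1453 and 1704 with testosterone and 1589, 1351 and 1536 in controls, overlapping. HDAC6, the tubulin deacetylase, had 1940.3, 1894 and 1945 in fetal testosterone and 2008, 1914 and 1884 in fetal control libraries, overlapping.

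The lysine demethylases had log2 changes from -0.61 to -0.019. KDM7A, which removes repressive methylation from histone H3, had 296, 206 and 258 normalized reads in fetal testosterone and 428, 459 and 288 in fetal control libraries. Control C3 lay within the testosterone range, and the log2 change was -0.61 (SE 0.22, limma adjusted p = 0.441). KDM2A, a CpG island binding demethylase, had 2474, 2501 and 2707 in fetal testosterone and 3061, 3254 and 2758 in fetal control libraries (log2 change -0.24, SE 0.092). The same domain is found in KDM2B, which brings a Polycomb complex to CpG islands. KDM2B had 2358, 1596 and 2192 in fetal testosterone and 2360.0, 2662 and 2385 in fetal control libraries, with T2 the lowest and T1 just below C1. KDM3A, known from mouse for its role in spermatogenesis, had 1526, 1443 and 1479 in fetal testosterone and 1817, 1844 and 1563 in fetal control libraries (log2 change -0.23, SE 0.097). For KDM2A, KDM2B and KDM3A the groups did not overlap. KDM5A, KDM5B and KDM5C remove the histone mark of active promoters. KDM5A and KDM5C differed by -0.30 and -0.13. KDM5B had 7032, 8300.2 and 8445 in fetal testosterone and 8117, 7951 and 8155 in fetal control libraries, with T1 the lowest.

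Of the methyltransferases, SETD1B, which methylates histone H3 at active promoters, had 1481, 1241 and 1703 normalized reads in fetal testosterone and 1821, 2091 and 1704 in fetal control libraries (log2 change -0.35, SE 0.13, limma adjusted p = 0.461). T3 lay just below C3, so the groups did not overlap. KMT5C, which methylates histone H4 in heterochromatin, had 1477, 1472 and 1438 with testosterone and 1388, 1286 and 1319 in controls, without overlap (log2 change 0.14, SE 0.085). SETD2, which marks transcribed gene bodies, had 6541, 5995 and 6364 in fetal testosterone and 6567, 7027 and 5861 in fetal control libraries. KMT2E, a relative of the promoter methyltransferases, had 5127, 4574 and 4986 in fetal testosterone and 5245, 5352 and 4999 in fetal control libraries. Both overlapped between groups. PRMT5, the main enzyme of symmetric arginine methylation, had 3254, 2846 and 3263 in fetal testosterone and 3231, 3605 and 3603 in fetal control libraries, with T1 and T3 just above the lowest control. The 6 PRMT genes had log2 changes from -0.18 to 0.11.

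**Figure D3:**
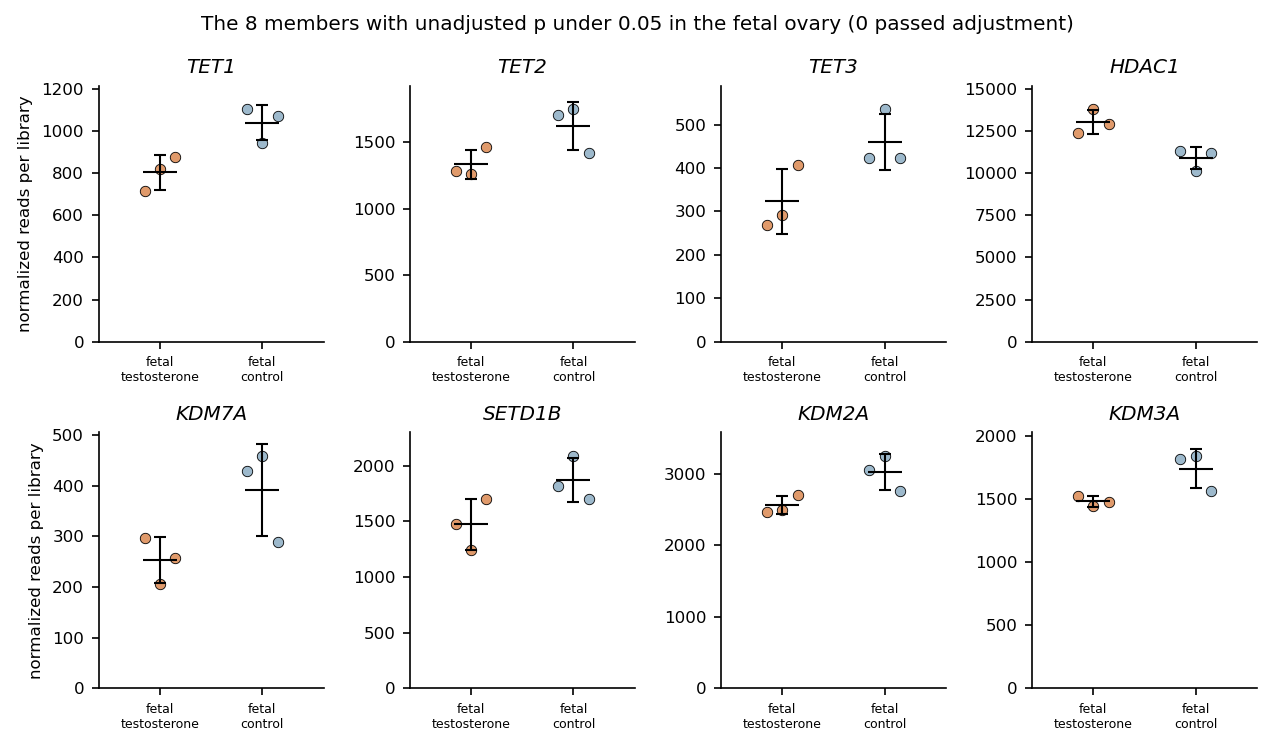
Normalized reads of the 8 members with an unadjusted p under 0.05 in the fetal comparison, with the 3 testosterone libraries left of the 3 controls (points) and the mean and SD of each group (bars). HDAC1 was higher and the other 7 lower in testosterone libraries, the groups overlapped for TET2 and KDM7A, and 0 of the 8 passed adjustment over all genes.

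Marker lists of cell types had these values beside the fetal changes. Of 21 germ cell genes measured in the fetal table, 20 had a negative change with testosterone (median -0.37). The mean log2 level of that list, relative to the 6 libraries, was 0.17, -0.43 and -0.28 in testosterone and 0.19, 0.57 and -0.23 in control libraries, so C2 was highest and T2 lowest. For the 14 of those genes in all 3 tables the summed level was 16807 to 24871 normalized reads in testosterone and 22752 to 30045 in control libraries. All 8 smooth muscle genes had a positive change (median 0.62), and their summed level was 52978 to 77112 in testosterone and 37915 to 50412 in control libraries. The mean log2 level of the smooth muscle list overlapped between the groups, with T3 at -0.036 and C1 at -0.022. On that measure the fetal groups did not overlap for 4 lists. The mean log2 level of the granulosa list (10 measured) was -0.046, 0.16 and 0.32 in testosterone and -0.14, -0.16 and -0.13 in control libraries, and that of the epithelium list (3 measured) 0.083 to 0.18 in testosterone and -0.22 to -0.012 in control. Lower in testosterone libraries were the luteal list (8 measured), at -0.35 to -0.14 against -0.037 to 0.50 in control, and the theca list (2 measured), at -1.31 to -0.44 against 0.067 to 1.67 in control. The summed granulosa level was 15156 to 17955 normalized reads in testosterone and 14155 to 15738 in control libraries, which overlapped on that scale. The summed luteal level, 2959 to 3279 in testosterone and 3134 to 3821 in control libraries, overlapped as well. So did the summed theca level, at 126 to 175 against 168 to 446, while the summed epithelium level did not. The endothelial, macrophage, lymphocyte, cell division and ovarian identity lists overlapped between the groups. With the germ cell list as a covariate, the log2 change was -0.48 for TET1, -0.49 for TET3, -0.20 for TET2, -0.32 for KDM7A, -0.24 for SETD1B, -0.18 for KDM2A, -0.14 for KDM3A and 0.19 for HDAC1, and 0 members were called. With the cell division list as a covariate 40 of the 63 members had a negative change (median -0.072), and 0 were called. The part of the remaining lists in these values was not tested.

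The second comparison asked whether exposed animals differed as adults. No member passed in either adult table or over all 8 adult libraries joined on 1 scale, where limma called 0.00631%, 0.00623% and 0.0127% of all genes. In the joined fit 0 members had an unadjusted p under 0.05, against 0.806% of all genes, DESeq2 (which called 0.0444% of all genes) and edgeR called 0, and 0 had groups that did not overlap, against 0.704% of all genes. Of the 63 members 37 had a negative change in the joined fit, and their median was -0.047, beside 50.9% negative and a median of -0.0054 over all genes. The direction depended on single libraries. With each library left out, the negative count was 26 to 47 and the median -0.14 to 0.040. Without T4, T7 and C6, chosen after seeing the data, 23 members were negative and the median was 0.094. The adult tables share 4 libraries, so the joined values are given below. Beside them, all 8 measured luteal genes had a positive change (median 0.84) and all 8 smooth muscle genes a negative one (median -0.96). The summed luteal level was 6073 to 279198 in adult testosterone and 7887 to 257513 in adult control libraries, and the smooth muscle level 81635 to 235327 in adult testosterone and 77992 to 962551 in adult control libraries. All 10 macrophage genes had a positive change (median 0.70) and 9 of 10 granulosa genes a negative one (median -0.36). No gene of these 4 lists was at 0 in any library.

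The 4 class IIa deacetylases, which shuttle between nucleus and cytoplasm, had negative changes in the adult, with a median of -0.35, and 0 of them passed. The count was 3 or 4 with each library left out and 2 without T4, T7 and C6. HDAC5, known from muscle and neurons for its signal-dependent export from the nucleus, had 4282, 6905, 7075 and 3811 normalized reads in adult testosterone and 9742, 7703, 5565 and 6388 in adult control libraries, a log2 change of -0.43 (SE 0.28, unadjusted p = 0.156 from limma). C4 was its highest value and T7 and T4 its lowest. HDAC9 had 328, 537, 371 and 189 in adult testosterone and 626, 458, 700.0 and 286 in adult control libraries (log2 change -0.55, SE 0.39). HDAC7 had 2016, 2785, 2665 and 3095 in adult testosterone and 4150.1, 3202, 2605 and 2804 in adult control libraries (log2 change -0.26, SE 0.21). The groups overlapped for all 3, and C4, the library with most smooth muscle signal, held the highest HDAC7 value. C4 also had the highest summed level of the endothelial list, 104600 normalized reads against 14481 to 52779 in the other adult libraries. The part of that list was not tested. With the smooth muscle list as a covariate the changes of HDAC5, HDAC9 and HDAC7 were -0.14, -0.43 and -0.075. Without T4, T7 and C6 they were -0.15, 0.052 and -0.28. HDAC4 had a change of -0.088, and of 0.31 without those 3 libraries.

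The adult changes of the TET genes were positive with intervals that spanned 0, and for TET1 and TET3 the sign depended on single libraries. TET2 differed by 0.32 (95% interval -0.57 to 1.20), TET1 by 0.16 (95% interval -1.46 to 1.78) and TET3 by 0.081 (95% interval -0.82 to 0.98). T5, whose column header carries the mark Resub, was the highest library for all 3. Without T5 the changes were 0.023 for TET2, -0.37 for TET1 and -0.19 for TET3. TET1 and TET3 were also negative without T6 or without C6, and TET3 without C4. DNMT1 differed by -0.33 (SE 0.30) and by -0.15 with the luteal list as a covariate. KDM7A had 395, 484, 260.4 and 128 normalized reads in adult testosterone and 228, 259, 352 and 100.2 in adult control libraries, with both number 7 libraries lowest in their group. KDM3A had 1485, 1978, 1725 and 1808 in adult testosterone and 1156, 1754, 1662 and 1783 in adult control libraries, with C4 the lowest. SIRT3 had 1948, 1310.0, 1641 and 2411 in adult testosterone and 1300.4, 1469, 1807 and 1960.2 in adult control libraries, with T7 the highest. SETD9, a little-studied SET domain gene, had 112, 164, 132 and 177 in adult testosterone and 63.5, 141, 98.1 and 233 in adult control libraries, with C7 the highest and C4 the lowest. SETD4, another SET domain protein, had 517, 451, 615 and 731 in adult testosterone and 509.5, 735, 722 and 846 in adult control libraries. The groups overlapped for each of these 5 genes. Log2 changes were 0.41 for KDM7A (SE 0.51), 0.16 for KDM3A, 0.15 for SIRT3, 0.27 for SETD9 and -0.28 for SETD4, none past the test.

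Adult animals differed from each other more than fetuses did. The median ratio of the highest to the lowest library was 2.10 over the 8 adult libraries and 1.27 over the 6 fetal libraries, beside 2.62 and 1.43 over all genes read in every library. The ratio passed 2 for 35 members in the adult (55.6%, against 68.5% of all genes) and for KDM7A alone in the fetus. A range over 8 libraries is wider than one over 6 by construction. After TET1 the widest adult ranges were 5.81-fold for HDAC11, the class IV deacetylase, 4.88-fold for KMT5C, 4.83-fold for KDM7A and 4.31-fold for SETD7. The tightest was KDM4A, a demethylase of heterochromatin marks, at 1.23-fold.

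For 22 members the 3 OXT-rich libraries lay together at 1 end of the adult range. For 19 members (30.2%, against 11.5% of all genes) T4, T7 and C6 were the 3 lowest adult libraries. They were DNMT1, TET1 and EZH1, the deacetylases HDAC5, HDAC6, HDAC10 and HDAC11, the demethylases KDM2B, KDM3B, KDM4B and KDM8, the methyltransferases KMT2B, KMT2C, KMT2E, KMT5B, SETD1B, SETD2 and SETD5, and PRMT2. For DNMT3B, KDM1B and SETD3, the last an actin histidine methyltransferase, these were the 3 highest (4.76%, against 14.1% of all genes). HDAC11 had 222, 713, 907 and 188 normalized reads in adult testosterone and 1071, 461, 184 and 534 in adult control libraries, with T7, T4 and C6 between 184 and 222. These low values belonged to both treatment groups, as for the genes that follow. KMT2C, which methylates histone H3 at enhancers, had 2662, 6858, 4859.8 and 3034 with testosterone and 4496, 3879.9, 2318 and 5398 in controls. KMT2E had 3469, 6903, 5527 and 4967 with testosterone and 5298, 5023, 3733 and 6577 in controls. In both genes C6 and T4 were the lowest pair. SETD2 had 3451, 5607, 5204 and 3826 with testosterone and 4798, 5291, 3830.0 and 5009 in controls. HDAC6 had 1226, 1587, 1653 and 1379 with testosterone and 1586, 1615, 1155 and 1844 in controls. The summed luteal list (8 of 9 measured) was 244708 to 279198 in those 3 libraries and 6073 to 12545 in the other 5. The macrophage list (10 measured) was also higher there, at 44058 to 47619 against 3173 to 14211. The order of libraries was read from OXT after the values were seen, so no test was made.

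In other members T4, T7 and C6 did not together form an end of the adult range. HDAC1 had 17485, 12023, 11639 and 11114 normalized reads in adult testosterone and 8731, 17695, 15159.7 and 9792 in adult control libraries, with C5 and T4 highest and C4 lowest. SIRT2 had 2776, 1950.4, 1962 and 2367 with testosterone and 2926, 1887, 2796 and 1539 in controls, with C4 highest and C7 lowest. KDM5B had 4632, 7483, 7542 and 5918 with testosterone and 4190.3, 8358, 5558 and 9790.5 in controls, where C7 was the highest and C4 the lowest. PRMT5 had 1227, 1785, 2166 and 1066 with testosterone and 994, 2435, 1278 and 2285 in controls, and C4 was again the lowest. After C4, the libraries T4, T7 and C6 were the highest for SIRT2 and the lowest for KDM5B and PRMT5.

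**Figure D4:**
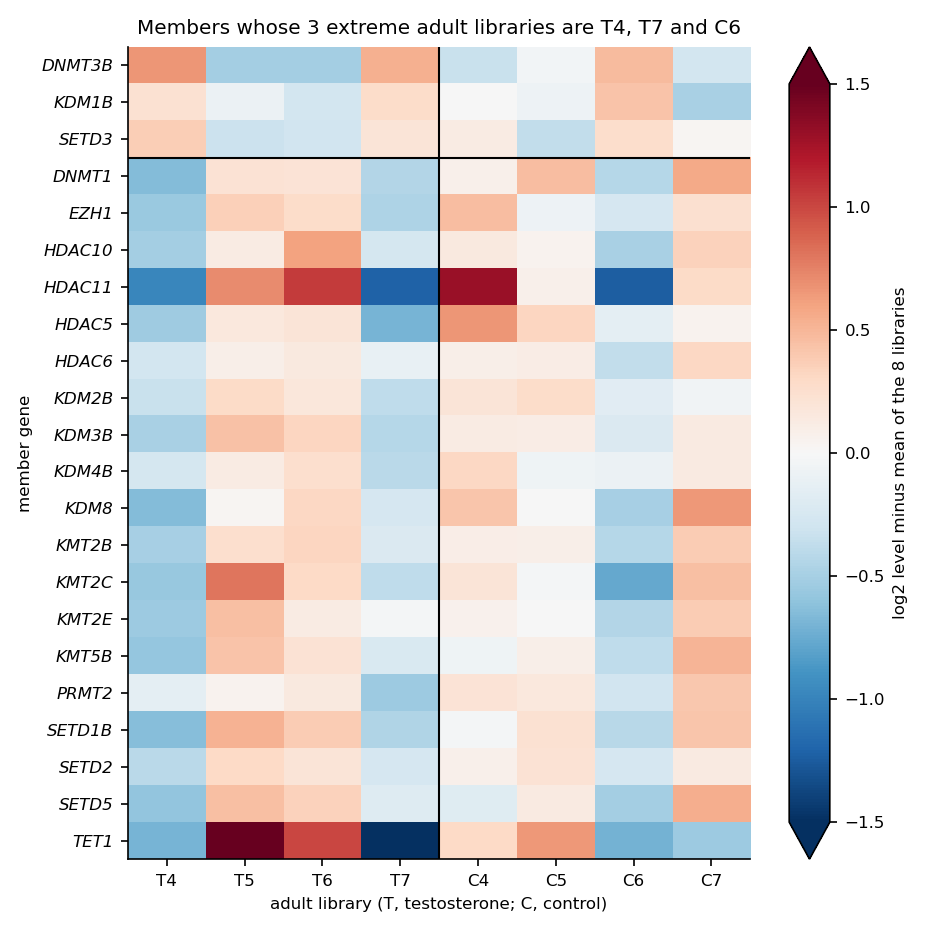
Log2 level, relative to the mean of the 8 adult libraries, of the 22 members whose 3 highest (top block) or 3 lowest (bottom block) adult libraries were T4, T7 and C6, with testosterone libraries left of controls. The 3 genes above the line were high and the 19 below it low in those libraries, which were chosen by their OXT level.

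The third comparison set adult ovaries against fetal ovaries, separately in testosterone and control animals, which share no library. In testosterone animals 2 members were higher and 5 lower in the adult, 11.1% of the 63. Over all 15159 genes 10.8% were higher and 12.3% lower, 23.1% in all. In controls 3 members were higher and 5 lower, 12.7% of the 63, against 9.26% higher and 11.7% lower of 15168 genes, 20.9% in all. In both contrasts the share of members called was below that of all genes, which is a description with no test. DESeq2 called 10 members in testosterone animals and 15 in controls, beside 33.2% and 34.2% of all genes. Those it added to the limma calls were KMT5C, PRMT3 and SIRT2 in testosterone animals and PRMT2, PRMT3, PRMT5, SETD2, SETD3, SETD7 and TET2 in controls. HDAC7, higher, and KDM1B, KDM2B and KDM4B, lower, passed in both by limma, which is 57.1% of the testosterone calls and 50.0% of the control calls. Over all 15152 genes tested in both, the shared calls were 59.2% of the testosterone calls and 65.3% of the control calls. Age cannot be told apart here from cell makeup or from any difference in how the tables were made.

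TET1 had the lowest adult level relative to the fetus, and its difference passed in controls. In testosterone animals its mean was 345 ± 298 normalized reads in adults (SD, n = 4) and 804 ± 83.4 in fetuses (SD, n = 3), and the log2 difference of -1.74 (SE 0.73) did not pass (limma adjusted p = 0.119). Without T4 and T7, which had the lowest TET1 of the group, the difference was -0.49 (limma adjusted p = 0.0960). In controls TET1 fell to 232 ± 103 in adults (SD, n = 4), against 1040.2 ± 83.9 in fetuses (SD, n = 3), a log2 difference of -2.27 (SE 0.35, limma adjusted p = 0.00573). TET2 and TET3 were called in neither contrast by limma, with log2 differences of -0.057 and -0.11 in testosterone animals and -0.65 and -0.71 in controls. DESeq2 called TET2 in controls (adjusted p = 0.0374). The DNA methyltransferases did not pass with either tool, with differences from -0.48 to 0.021 in testosterone animals and -0.55 to -0.049 in controls.

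Among demethylases, 10 of 16 had a negative difference in testosterone animals (median -0.17) and 14 of 16 in controls (median -0.28), beside medians of 0.012 and 0.029 over all genes. KDM1B, a flavin-dependent demethylase that mouse oocytes need to set maternal imprints, had 416, 335, 293 and 432 in adult testosterone against 741, 659 and 857 in fetal testosterone libraries. In control animals KDM1B had 353, 335, 478 and 253 in adult control against 761, 965 and 962 in fetal control libraries. All adult values lay below all fetal values, and KDM1B fell by 1.04 on the log2 scale in testosterone animals (SE 0.21, limma adjusted p = 0.0109) and by 1.36 in controls (SE 0.25, limma adjusted p = 0.00982). KDM2B had 816, 1249, 1154 and 788 in adult testosterone against 2358, 1596 and 2192 in fetal testosterone libraries. In control animals KDM2B had 1176, 1242, 911 and 992 in adult control against 2360.0, 2662 and 2385 in fetal control libraries. Its adult values also lay wholly below the fetal values, and it fell by 1.04 in testosterone animals (limma adjusted p = 0.0155) and by 1.20 in controls (limma adjusted p = 0.00317).

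KDM4B, a demethylase of heterochromatin marks, had 1732, 2272, 2481 and 1582 in adult testosterone against 3001, 2971 and 3093 in fetal testosterone libraries. In control animals KDM4B had 2590.4, 1989, 1962 and 2293 in adult control against 3467, 3689 and 3142 in fetal control libraries. It fell by 0.61 in testosterone animals (limma adjusted p = 0.0489) and by 0.64 in controls (limma adjusted p = 0.0241). Without T4 and T7, its lowest libraries in that group, the testosterone difference was -0.35 (limma adjusted p = 0.0345). KDM5A passed in controls, with 2047, 2086, 1796 and 1749 in adult control against 2887, 3612 and 2771 in fetal control libraries (log2 difference -0.68, SE 0.15, limma adjusted p = 0.0199). In testosterone animals KDM5A had 1813, 2891, 2185 and 1524 in adult testosterone against 2182, 2538 and 2775 in fetal testosterone libraries, a difference of -0.28.

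Deacetylases were called in both directions. HDAC7 was called higher in both contrasts and HDAC3 and HDAC5 in controls only, while HDAC2 was called lower in testosterone animals. All 3 class IIb and IV deacetylases had negative differences in both contrasts, none called. HDAC7, a class IIa enzyme prominent in endothelium, had 1100.5, 1485 and 1281 in fetal testosterone and 1392, 1157 and 1185 in fetal control libraries, all below its adult range of 2016 to 4150.1 normalized reads. It rose by 1.03 on the log2 scale in testosterone animals (SE 0.19, limma adjusted p = 0.00752) and by 1.34 in controls (SE 0.19, limma adjusted p = 0.00403). HDAC5 had 3846, 4175 and 4616 in fetal testosterone and 4349, 3659 and 3999.7 in fetal control libraries. Against its adult values above, it differed by 0.34 in testosterone animals and rose by 0.85 in controls (SE 0.21, limma adjusted p = 0.0271). HDAC3 had 2859, 1973, 2279.9 and 2628 in adult testosterone and 2518, 2566, 2809.7 and 2690.3 in adult control libraries, with T5 the lowest. Its difference was 0.29 in testosterone animals, and it rose in controls by 0.52 (SE 0.12, limma adjusted p = 0.0235). HDAC2 had 4227, 4169.9, 3932 and 4018 in adult testosterone and 2428, 5515, 4359.9 and 4572 in adult control libraries, with C4 the lowest. It fell in testosterone animals by 0.46 (SE 0.13, limma adjusted p = 0.0374), and its difference in controls was -0.46 with a wider SE of 0.27. The endothelial list (8 of 10 measured) summed to 14481 to 104600.4 normalized reads in adult and 11330.4 to 17607 in fetal libraries, none of its genes at 0, and its part in the HDAC7 difference was not tested.

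Among methyltransferases SETD7, which methylates histone H3 and other proteins, and PRMT5 passed in testosterone animals. SETD7 had 949, 1132, 809.8 and 674 in adult testosterone against 212, 300.4 and 356 in fetal testosterone libraries, and rose by 1.62 (SE 0.26, limma adjusted p = 0.00403). In control animals SETD7 had 2159, 684, 1225 and 501 in adult control against 394, 314 and 372 in fetal control libraries, a difference of 1.44 (limma adjusted p = 0.0659). Adult values exceeded fetal values in both, and the adult controls ranged more widely. PRMT5 had 3254, 2846 and 3263 in fetal testosterone and 3231, 3605 and 3603 in fetal control libraries, all above the adult range of 994 to 2435. It fell by 1.05 in testosterone animals (SE 0.25, limma adjusted p = 0.0209; -0.66 without T4 and T7), and its difference of -1.09 in controls had an adjusted p of 0.0503 from limma and 0.0231 from DESeq2. EZH1 and SETD2 passed in neither contrast by limma, though SETD2 did in controls by DESeq2 (adjusted p = 0.0314), with log2 differences of 0.44 and -0.51 in testosterone animals and 0.49 and -0.46 in controls. Without T4 and T7, chosen after seeing the data, 17 members were called in testosterone animals, against 39.7% of all genes.

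**Figure D5:**
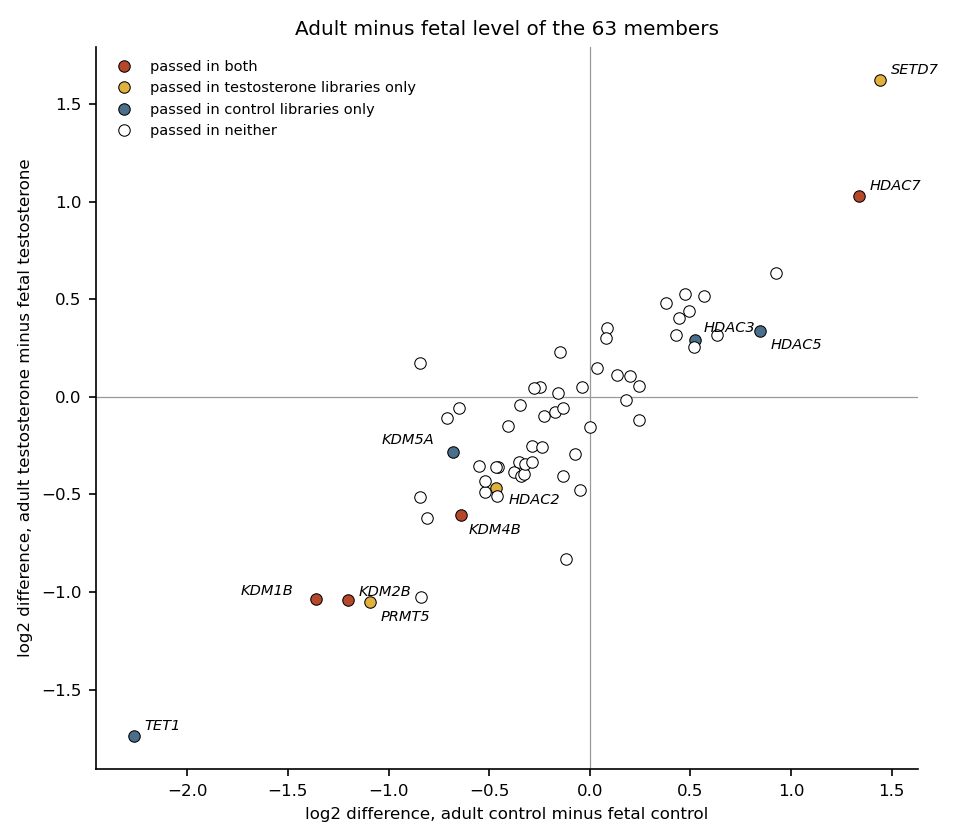
Log2 difference, adult minus fetal, of the 63 members in testosterone animals (vertical axis) against control animals (horizontal axis), with colours for the contrast in which limma called them. HDAC7 lay upper right and KDM1B, KDM2B and KDM4B lower left as calls in both, and SETD7 had the highest and TET1 the lowest difference on each axis.

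Several calls for age depended on single libraries. SETD7 and HDAC7 in testosterone animals and KDM2B, HDAC7 and TET1 in controls were called whichever library was left out. In testosterone animals KDM1B and KDM2B were lost without fetal T1 or T3 (limma adjusted p up to 0.0624 and 0.0801). PRMT5 was lost without any 1 of the fetal testosterone libraries (up to 0.0876), KDM4B without those, T4 or T7 (up to 0.158), and HDAC2 without any library but T4 (up to 0.169). In controls KDM1B was lost without fetal C2 or C3 (limma adjusted p up to 0.0593), and KDM5A without any 1 of the fetal controls (up to 0.106). HDAC3, HDAC5 and KDM4B were lost without adult C5 or any 1 fetal control (limma adjusted p up to 0.121, 0.120 and 0.120). None of these changed direction.

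Several lists of cell type markers differed between the ages as well. Of 14 measured germ cell genes 13 were lower in adult than fetal testosterone animals (median log2 difference -3.11, 11 called) and 14 in controls (median -3.19, 10 called). Their summed level was 1759 to 8087 normalized reads in adult and 16807 to 30045 in fetal libraries, and the oocyte gene BMP15 was at 0 in adult control C4. The median of the cell division list (15 measured) was -1.07 in testosterone animals and -1.16 in controls. That of the smooth muscle list was 0.76 in testosterone animals and 2.65 in controls, and that of the luteal list 3.34 in testosterone animals and 2.23 in controls. The macrophage, lymphocyte and epithelium lists had medians of 2.97, 2.52 and -2.01 in testosterone animals and 2.17, 2.48 and -1.92 in controls. The epithelium list had 3 measured genes, and its sum overlapped between the ages, at 696 to 6389 in adult (C5 highest) and 3456 to 4873 in fetal libraries. So did the granulosa sum, at 5191 to 31215 in adult and 14155 to 17955 in fetal libraries. The part of these lists in the members' differences was not tested.

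Whether the effect of testosterone differed between ages was tested directly, as the adult change minus the fetal change. No member passed, against 0.0066% of 15163 genes, and 0 had an unadjusted p under 0.05, against 2.43%. An edgeR interaction over all 14 libraries also called 0. The smallest p was that of KDM7A, where the adult change of 0.41 minus the fetal change of -0.61 gave 1.02 (SE 0.56, unadjusted p = 0.0918 from limma). For KDM3A the changes were 0.16 in adults and -0.23 in fetuses. TET1, TET2 and TET3 had differences of 0.53 (SE 0.73), 0.59 (SE 0.41) and 0.60 (SE 0.44). Without T5 the TET1 difference was -0.0030. HDAC5 differed by -0.51 (SE 0.30) and HDAC9 by -0.71 (SE 0.43).

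Other chromatin genes were read from a list of 96, of which 79 were in all 3 tables. The list holds acetyltransferases, readers of methylated DNA and histones, Polycomb and corepressor subunits and suppliers of cofactors. It also holds methyltransferases and demethylases whose symbols do not match the rule for members, so it is not a list of partners alone. In the fetal ovary 0 were called, 8 had an unadjusted p under 0.05 and 50 had negative changes (median -0.053). The share at an unadjusted p under 0.05, 10.1%, was near the 9.76% of all genes, of which 53.4% had negative changes. Those of smallest p were ZBTB33, which binds methylated DNA, at -0.36 (SE 0.11), the acetyltransferase KAT6A at -0.31, and SIN3A, the scaffold of an HDAC1 complex, at -0.25. Leading in the other direction were the isocitrate dehydrogenase IDH2 (0.24), the methylated DNA reader MBD2 (0.25) and the Polycomb ligase RING1 (0.17). In the adult 0 were called and 55 of 79 had negative changes (median -0.098), beside 50.9% of all genes. With each library left out, that count ran from 39 (without T4) to 63 (without T5 or C6). T4, T7 and C6 had the 3 lowest mean levels of the list, and without them 28 of 79 were negative (median 0.080). The Polycomb subunits CBX8 (-0.38) and PCGF1 (-0.32) and the NuRD subunit MBD3 (-0.25) had the smallest p among these. NAMPT, which makes NAD for sirtuins, had 0.35, MAT2B, of the enzyme that makes the methyl donor, 0.17, and the methyltransferase DOT1L 0.30.

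With age, 3 of the 79 rose and 16 fell in testosterone animals (24.1% called, beside 23.1% of all genes), and 6 rose and 16 fell in controls (27.8%, beside 20.9%). HELLS, a remodeler needed for DNA methylation, had a log2 difference of -2.42 in testosterone animals (limma adjusted p = 0.000386). In controls it fell to 292 ± 168 normalized reads in adults (SD, n = 4), against 1414 ± 329 in fetuses (SD, n = 3), a log2 difference of -2.46 (limma adjusted p = 0.0130). UHRF1, which guides DNMT1 to newly copied DNA, fell to 392 ± 202 in adult testosterone ovaries, against 1326 ± 34.1 in fetal testosterone ovaries (log2 difference -1.90, limma adjusted p = 0.0104). The heterochromatin methyltransferase SUV39H1 fell in both, by 1.21 in testosterone animals and 1.10 in controls. The Polycomb subunit CBX2 had -1.46 in testosterone animals and -1.31 in controls, both called. JARID2, another Polycomb subunit, had -0.97 in testosterone animals (limma adjusted p = 0.0369) and -1.48 in controls (limma adjusted p = 0.0262). SUV39H2 fell by 1.33 in testosterone animals. HR, a histone demethylase known from hair follicles, rose by 3.10 in testosterone animals. In controls HR rose to 468 ± 279.9 in adults, against 41.3 ± 16.1 in fetuses (log2 difference 3.31). MBD2 rose by 1.22 in testosterone animals and 1.36 in controls. IDH1 rose by 1.69 in testosterone animals, and CBX7 and IDH2 by 1.64 and 0.70 in controls.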

How the data were processed

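RNA of 14 whole ovaries was sequenced as paired 150-base reads, per the labels' protocols. Trimmomatic 0.36 and STAR 2.5.2b are named in the submitters' processing notes and DESeq2 in the series text, while for counting, genome build and annotation nothing is given in the sources used here. In each of the 3 tables that the authors deposited, 6 libraries have a signal column (reads over a library size factor), beside their log2 fold changes with p-values, raw and adjusted. All deposited signal values (100%) came out as whole reads, to within 0.01, when divided by 1 library step, which gave the reads back. Adult libraries C4, C6, T5 and T6 are in both adult tables; C6 had 26.4 M reads in the first and 33.4 M in the second, and the deeper version was used when tables were joined by median-of-ratios size factors.

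Tests used limma 3.58.1 under R 4.3.3, its trend option on, applied to log2(value + 1), over all genes with a mean of at least 10, Benjamini-Hochberg adjusted over all of them, called under 0.05. A log2 change is therefore on the scale of value plus 1. The difference between ages used Welch-Satterthwaite degrees of freedom. edgeR 4.0.16 (quasi-likelihood) and DESeq2 1.42.0 were run on recovered reads as alternatives, and the fits were tested on simulated data. Levels in the text use size factors over all 14 libraries, and their log2 differences depart from the fitted ones by at most 0.0046.

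The members, the lists and the rule for giving library values were chosen with earlier results of these data known. The rule gives every library for DNMT, TET and EZH genes, for the member with most reads in each other class, for the 5 members of smallest p in each direction per treatment comparison and for members called with age; other members are named where a count needs them, or after their values were seen. Deviations from group means correlated 0.13, 0.0093 and 0.40 for fetal libraries of the same number and 0.055, 0.30, -0.64 and -0.19 for adult ones, so the numbers were not taken as pairs.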

Additional observations from a re-analysis of the deposited data

Results flagged for a closer look

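Of 126 groups of 4 adult libraries (63 members in 2 groups), 5 held a library that stood far from the other 3 by Dixon's criterion at the 95% level, a share of 3.97%. Chance alone marks about 1 group in 20. In adult testosterone libraries T4 was involved both times. HDAC1 had 17485 normalized reads in T4 and 11114 to 12023 in T5, T6 and T7. SETDB1, a methyltransferase of heterochromatin, had 1439.5 in T4 and 2445 to 2581 in the other 3.

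In adult controls 3 different libraries stood out. KDM3B, a demethylase of the KDM3 family, had 3098 normalized reads in C6 and 3897 to 3941 in the others. KDM4C, which acts on heterochromatin marks, had 725 in C4 and 578 to 598 in the others. SIRT6, a nuclear sirtuin, had 405 in C5 and 333 to 345 in the others. Groups of 3 fetuses were not examined in this way.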

How the results depend on the processing

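Counts of members called for treatment stayed at 0 under every alternative run: 12 settings and 6 libraries left out for the fetus, 15 and 8 for the joined adults, and likewise in each adult table and in the difference between ages. With the sample number as a replicate block the count was 0 in each of these comparisons. For age in testosterone animals, 7 members by limma became 12 at a threshold of 0.1, 17 without the OXT-rich T4 and T7 (chosen after seeing the data), when 39.7% of all genes were called, and 2 to 11 with each library left out (11 without adult T5; 2, 4 and 2 without fetal T1, T2 and T3). For age in controls, 8 became 16 at a threshold of 0.1 and 15 with DESeq2, and 3 to 15 with each library left out (15 without adult C7; 4, 3 and 3 without fetal C1, C2 and C3). Among single members, KDM4B in testosterone animals was lost without a variance trend or with edgeR, HDAC2 without a trend, and HDAC5 in controls with quantile normalization. Among the single-member changes and differences printed in the text and rerun, 1043 values kept the direction and the call, 39 lost a call, 18 gained one and 29 turned sign. The 29 all belong to changes that limma did not call. In the joined adults SIRT3 turned to -0.036 with the smooth muscle list as a covariate and -0.070 without T4, T7 and C6, HDAC9 to 0.052 without those 3, and HDAC4 to 0.31 without them, 0.22 with the smooth muscle and 0.048 with the luteal list. With age in testosterone animals TET2 turned to 0.079 with edgeR, 0.097 with DESeq2 and 0.55 without T4 and T7, where TET3 was 0.43 and KDM5A 0.017. With each library left out, the joined adult change ran from -0.033 to 0.59 for SETD9, -0.37 to 0.74 for TET1, -0.19 to 0.32 for TET3 and -0.29 to 0.13 for HDAC4. The age difference in testosterone animals ran from -0.34 to 0.28 for TET2 and -0.37 to 0.13 for TET3, and the difference between ages from -0.0030 to 1.11 for TET1. Fits without 1 library have fewer samples; beyond that the cause was not tested.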
